A study of Mus musculus with 6 samples.

Results

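The circular RNAs (circRNAs) of Mtss1 were those assigned to this host gene by the authors in mouse liver. They comprised 5 of the 7469 listed circRNAs and 1 of 3464 host genes. Entries with the same end and strand and starts 1 bp apart were summed, which left 4 back-splice junctions among 7122. Mtss1 was selected on its reads by diet in these same libraries, in which its entry circRNA5602 passed the thresholds of the study, so that every Mtss1 value by diet is given as a description, without a test. Liver RNA was taken from male C57BL/6J mice at 12 weeks of age, after 7 weeks on a high-fat diet (HFD, 60% fat) or on a low-fat control diet (LFD, 10% fat). All mice had been fasted for 12 h, and 3 mice of each diet were sequenced. Ribosomal RNA was depleted before the libraries were made, and the study also describes RNase R treatment, which degrades linear RNA. The 6 libraries held between 5384 and 6590 back-spliced reads each, and the values are given as reads and as SRPBM, which the authors obtained by scaling back-spliced reads to the total mapped in that library. A single read was worth 0.229 to 0.277 SRPBM.

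A circRNA forms when the end of an exon is spliced back to the start of the same or an earlier exon, and a read across that back-splice is what tells the circle from the linear mRNA. The closed ring has no free ends and is slowly degraded by exonucleases. Introns can also persist as circular RNA, and the deposited list gives these a type of their own. Mtss1 encodes MTSS I-BAR domain containing 1, a protein that binds actin monomers and bends the plasma membrane outward through its amino-terminal I-BAR domain. The reads measured here report the circles and not the mRNA or the protein.

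The ends of 5925 of the 6066 exonic junctions fitted GRCm38 exons of their listed transcript. On this build Mtss1 (ENSMUSG00000022353.10) lies on the minus strand at chr15:58941234-59082005 and spans 140772 bp. Its transcript ENSMUST00000080371 has 15 exons and 4938 nt. Of the 4 junctions, 3 joined whole exons and 1 was a whole intron. The leading circle (chr15:58968839-58972560) joined the end of exon 6 to the start of exon 4. It held exons of 85, 92 and 75 nt, or 252 nt in all. circRNA489 (chr15:58951470-58956590) joined exons 8 to 11 with 575 nt, circRNA491 (chr15:59055018-59058422) joined exons 2 and 3 with 136 nt, and ciRNA374 (chr15:58944131-58945361) was the 1231 bp intron between exons 14 and 15.

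**Figure D1:**
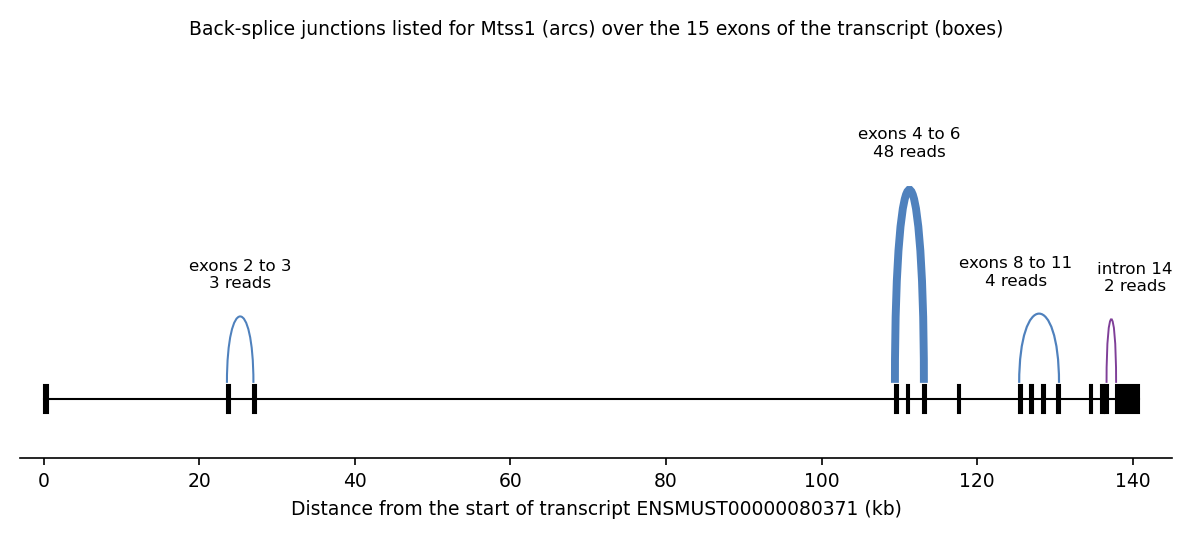
Back-splice junctions of Mtss1 (arcs, thicker with more reads) over the 15 exons of ENSMUST00000080371 (boxes, with short exons drawn wider than scale), by distance from the transcript start in kb. Arc height carries no value. The exon 4 to 6 circle held 48 of the 57 reads and follows the 82457 bp intron.

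The sequence of the leading circle is shown because 48 of the 57 Mtss1 reads crossed its junction. It was read from the GENCODE M21 transcript, 5′ to 3′ from the start of exon 4, with exon 5 in capitals.
Mtss1 exon 4 to 6 circle: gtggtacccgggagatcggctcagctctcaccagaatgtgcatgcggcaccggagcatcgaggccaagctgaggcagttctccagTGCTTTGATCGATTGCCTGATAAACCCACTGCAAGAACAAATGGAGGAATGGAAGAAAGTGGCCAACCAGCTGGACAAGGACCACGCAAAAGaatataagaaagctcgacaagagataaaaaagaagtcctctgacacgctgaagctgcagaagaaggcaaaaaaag

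The junctions themselves are shown because they are what a back-spliced read identifies, with the last 15 bases of the circle in capitals followed by the first 15 bases. The leading circle was listed under starts 1 bp apart, so it appears under both of its names.
mmu_circ_0000603: AGAAGGCAAAAAAAGgtggtacccgggaga
circRNA5602: AAGAAGGCAAAAAAAgtggtacccgggaga
circRNA489: GAAGCTGCCAACCAGggaggggcgacatcc
circRNA491: CCACCAACACACGTGgggagctatccagtt
The listed start of circRNA5602 leaves out the final G of exon 6. Exon 4 also begins with G, as do the first exons of the other exonic circles. The deposited list gives positions and not read sequences, and which of these junctions the reads held cannot be told from it.

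Exons 4 to 6 had 5, 3 and 5 back-spliced reads in HFD replicates 1 to 3 and 12, 8 and 15 reads in LFD replicates 1 to 3, after both names were summed. Each of the 3 LFD libraries was above each of the 3 HFD libraries. The corresponding SRPBM were 1.15, 0.763 and 1.34 on the HFD and 3.20, 2.21 and 3.96 on the LFD. The mean was 1.08 ± 0.295 SRPBM on the HFD and 3.12 ± 0.873 SRPBM on the LFD (SD, n = 3 each), or 2.88 times as high on the LFD. The lowest LFD library lay 0.871 SRPBM above the highest HFD library, a distance between the worth of 3 and of 4 reads. No overlap between the diets was also found in 106 of 2089 junctions with reads in at least 2 libraries (5.07%), and among the 232 junctions with reads in all 6 libraries it was found in 22 (9.48%), of which 7 were lower on the HFD.

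The share of all back-spliced reads that crossed this junction was 0.0779% (95% exact Clopper-Pearson interval 0.0253 to 0.182), 0.0455% (0.00939 to 0.133) and 0.0833% (0.0270 to 0.194) in HFD replicates 1 to 3. In LFD replicates 1 to 3 it was 0.223% (0.115 to 0.389), 0.145% (0.0625 to 0.285) and 0.239% (0.134 to 0.393). These intervals cover counting error only. Each LFD interval overlapped with each HFD interval, with the exception of LFD replicate 3 and HFD replicate 2. The LFD/HFD ratio was 2.69 on reads and 2.93 on shares. In SRPBM, the ratio within the 4 libraries of lower base quality (Q30) was 2.57. Between the 2 libraries of higher quality, HFD replicate 1 and LFD replicate 3, the SRPBM ratio was 3.45.

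**Figure D2:**
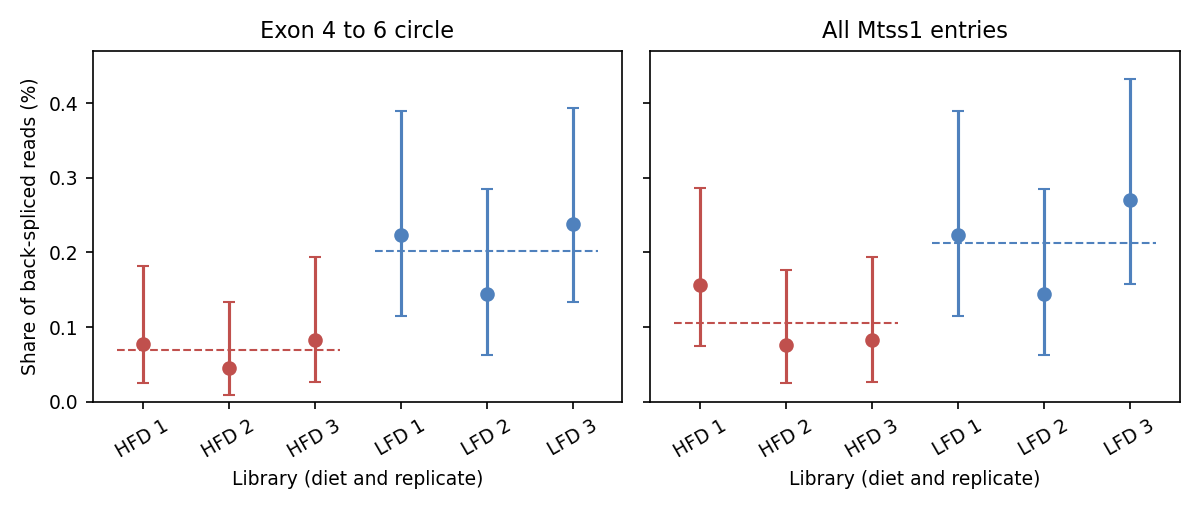
Percent of all back-spliced reads in each library that crossed the Mtss1 exon 4 to 6 junction (left) or any Mtss1 junction (right). Points are libraries, bars are 95% exact Clopper-Pearson intervals and dashed lines are diet means. On the left the LFD libraries lay between 0.145% and 0.239%, all above the HFD libraries at 0.0455% to 0.0833%, and on the right the diets overlapped.

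The names divided the circle between libraries. mmu_circ_0000603, whose start is that of exon 6, had 5, 3 and 5 reads on the HFD against 12, 0 and 0 reads in LFD replicates 1 to 3. circRNA5602, which starts 1 bp inside exon 6 and was listed under transcript ENSMUST00000228365, had no read in the HFD libraries or LFD replicate 1 and had 8 and 15 reads in LFD replicates 2 and 3. No library had reads under both names. Thus circRNA5602 alone appeared as an entry present only in LFD libraries, at 2.21 and 3.96 SRPBM, whereas mmu_circ_0000603 alone overlapped between the diets.

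In the edgeR quasi-likelihood fit over all junctions, the summed circle had a log2 fold change (HFD over LFD) of -1.56 (SE 0.80). With the entries as listed, that of mmu_circ_0000603 was -0.11 (SE 1.25). The fitted fold change of circRNA5602 depends on the prior count, since all its HFD libraries were at 0, and is no measure of the size of a change. No call is read for any of these entries, because their reads by diet were used to choose the gene, and circRNA5602 entered the fit only through LFD replicates 2 and 3. As background, 47 of 2089 summed junctions (2.25%) and 49 of 2041 entries as listed (2.40%) had a log2 fold change of 1 or more in either direction and a p below 0.05 before adjustment. After the Benjamini-Hochberg adjustment, edgeR left 0 summed junctions with an adjusted p under 0.05 (lowest 0.691). DESeq2 also left 0 and called 15 at the unadjusted thresholds. Without the filter on libraries, edgeR left 1 of 7122 junctions with an adjusted p under 0.05 (3.9e-05). That setting also tests junctions with reads in only 1 library, so this value is not read as a difference between the diets.

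**Figure D3:**
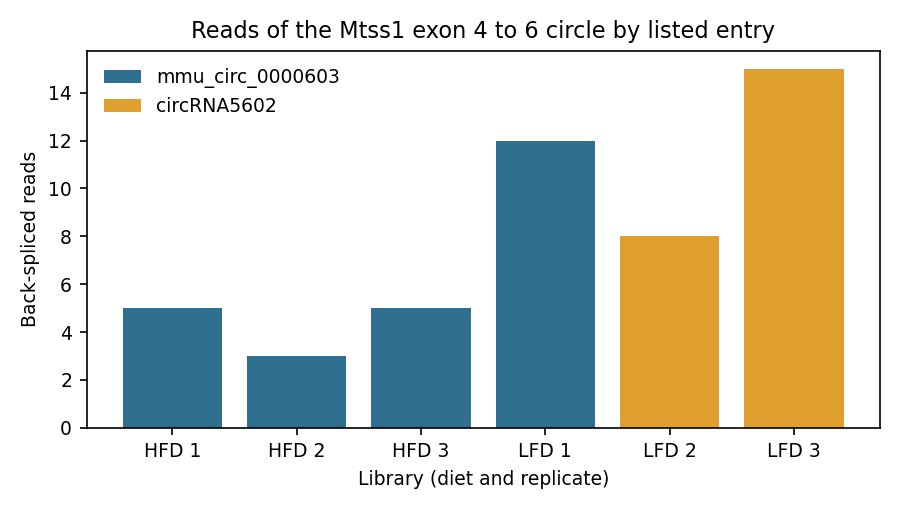
Back-spliced reads of the Mtss1 exon 4 to 6 circle in each library (bars), coloured by the entry that listed them. HFD libraries used the mmu_circ_0000603 name for the exon 4 to 6 circle, LFD replicate 1 also used it, and LFD replicates 2 and 3 used circRNA5602.

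Division between starts 1 bp apart was common in the list. Besides that of Mtss1, 346 junctions had a pair of such starts, and in 339 of them the libraries divided between the starts. Of 1268 combinations of a pair and a library with reads, both starts had reads in 11. In all 55 of the other pairs with reads in every library, the libraries divided between the starts, and 0 of these pairs had both starts in the same library. LFD replicates 2 and 3 both used the upper start, as at Mtss1, in 7 of the 55. Over all 346 pairs, 64.7% ± 1.22 of the reads fell on the lower start in HFD libraries and 62.2% ± 4.37 in LFD libraries (SD, n = 3 each). The difference of 2.56 percentage points was within the spread between libraries (two-sided exact permutation test, p = 0.5, with 0.1 the smallest p that 3 against 3 allows). These reads were not used in choosing Mtss1.

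**Figure D4:**
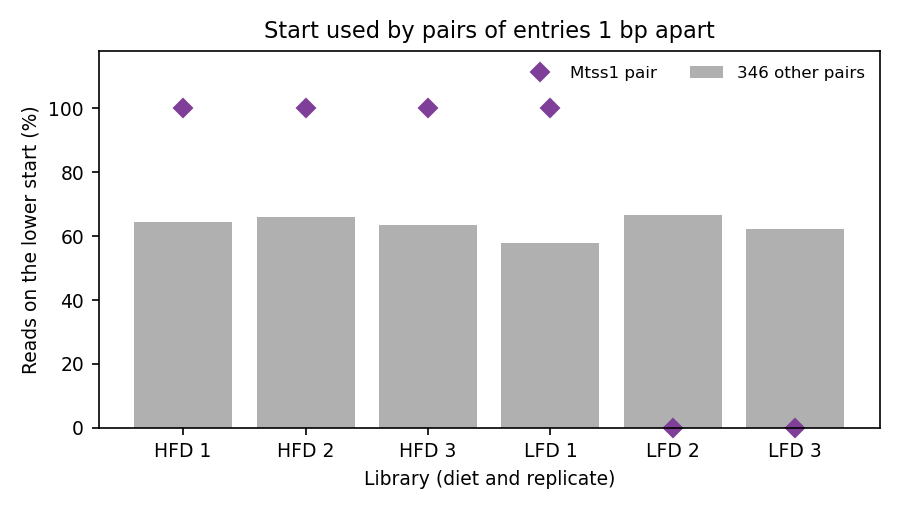
Percent of the reads at junctions listed under starts 1 bp apart that carried the lower start, by library, for the 346 other pairs (bars) and for Mtss1 (diamonds). The sum over the 346 other pairs lay between 57.7% and 66.5% in every library. Mtss1, a single pair, was at 100% in the HFD libraries and LFD replicate 1 and at 0% in LFD replicates 2 and 3. Single pairs among the others had reads at both starts in 11 of 1268 combinations of a pair and a library with reads.

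The remaining Mtss1 entries were sparse. circRNA489, from exons 8 to 11, had 4 reads in HFD replicate 1 (0.918 SRPBM) and none elsewhere. ciRNA374, the intron circle, had 2 reads in HFD replicate 2 (0.509 SRPBM) and none elsewhere. circRNA491, from exons 2 and 3, had 1 read in HFD replicate 1 (0.229 SRPBM) and 2 reads in LFD replicate 3 (0.527 SRPBM). Of the 4 junctions, the leading circle and circRNA491 had reads in at least 2 libraries and entered the fit, and circRNA491 had a log2 fold change of -0.87 (SE 1.96). For a junction with no read, a count of 0 allows up to 3 reads, or 0.688 to 0.830 SRPBM by library, so most of these differences were not detectable at this depth.

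Summed over all entries, Mtss1 had 10, 5 and 5 reads in HFD replicates 1 to 3 and 12, 8 and 17 reads in LFD replicates 1 to 3. The diets now overlapped, with 2.29 SRPBM in HFD replicate 1 and 2.21 SRPBM in LFD replicate 2. The mean was 1.64 ± 0.571 SRPBM on the HFD and 3.30 ± 1.14 SRPBM on the LFD (SD, n = 3 each), a ratio of 2.02. The exon 4 to 6 circle made up 50.0%, 60.0% and 100% of the Mtss1 reads in HFD replicates 1 to 3 and 100%, 100% and 88.2% in LFD replicates 1 to 3. Entries other than this circle had 5, 2 and 0 reads on the HFD and 0, 0 and 2 reads on the LFD.

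With 48 reads the circle was well above the median junction, which had 2 reads. More reads were found at 93 junctions, and 4 others had as many. Among the 232 junctions seen in all 6 libraries, whose median was 39 reads, 146 had fewer reads than the Mtss1 circle. Mtss1 as a host gene had 57 reads, and 108 host genes had more. The leading circle held 84.2% of these reads. Across the 203 host genes with 4 junctions the median share of the leading junction was 50.0%, and 12 of them had a larger share than Mtss1.

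The intron before the circle, between exons 3 and 4, is 82457 bp and the longest of the gene. It was longer than the upstream intron of 96.6% of the other exonic junctions that could be placed on their listed transcript, whose median was 6890 bp. The downstream intron of 4330 bp was longer than that of 44.8% of them (median 5127 bp). In ENSMUST00000228365, the same exons are numbered 2 to 4 and are flanked by introns of 67937 and 12248 bp, since that transcript starts from another first exon and lacks the 12 nt exon 7. The same 82457 bp intron lies downstream of the exon 2 and 3 circle, whereas circRNA489 is flanked by introns of 7906 and 3949 bp.

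The circle was short for its exon number. Its 252 nt compare with a median of 375 nt over the 1463 junctions of 3 exons, of which 91.4% of the others were longer. Over all placed exonic junctions the median was 402 nt. The length of 252 nt is a multiple of 3, as in 37.0% of these junctions, so that a reading frame around the ring would return to itself after 84 codons. In the frame of the host mRNA the ring held 0 stop codons and 3 ATG codons, while the other frames held 6 and 2 stop codons. Exons 4 to 6 are coding in the host transcript, so that only the codon across the back-splice is not also read in the mRNA. Circles of 575 and 136 nt shift frame at each lap and held 15 and 4 stop codons over 3 laps. These are properties of the annotated sequence, and translation was not measured. G and C bases made up 50.0%, 56.0% and 52.9% of the circles from exons 4 to 6, 8 to 11, and 2 to 3.

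The junctions whose SRPBM followed the Mtss1 circle most closely over the 6 libraries were taken from the 317 junctions of other genes with at least 20 reads. The median Pearson r over these was -0.07 and the lowest -0.98, and 2 reached 0.9. A junction of Gm49387 (circRNA540, chr14:31618972-31622974) had r = 0.97, with 11, 6 and 9 reads on the HFD and 17, 10 and 19 on the LFD. Rfx7, which encodes a DNA-binding factor of the RFX family, had r = 0.95 at chr9:72577039-72593360, with 5, 4 and 6 reads on the HFD and 9, 6 and 9 on the LFD. In SRPBM the diets did not overlap for either gene, as in 9.48% of the 232 junctions with reads in all 6 libraries. Both were picked for likeness to a circle without overlap, so this is no separate result. In reads, HFD replicate 1 exceeded LFD replicate 2 for Gm49387, and HFD replicate 3 equalled LFD replicate 2 for Rfx7.
Dennd1b, which encodes an exchange factor for Rab GTPases, had r = 0.88 at chr1:139053346-139062971, with 7, 2 and 4 reads on the HFD and 12, 3 and 13 on the LFD. Slco1b2, a bile acid and organic anion transporter of hepatocytes, had r = 0.80 at chr6:141663578-141672313, with 6, 3 and 5 reads on the HFD and 5, 6 and 9 on the LFD. Rps6kb1, which encodes the S6 kinase downstream of mTOR, had r = 0.80 at chr11:86532773-86535460, with 11, 6 and 4 reads on the HFD and 11, 6 and 14 on the LFD. The diets overlapped in reads for these 3 genes. All r values are descriptions over the same 6 libraries, which share their depth and diet, and the genes were picked for their likeness.

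**Figure D5:**
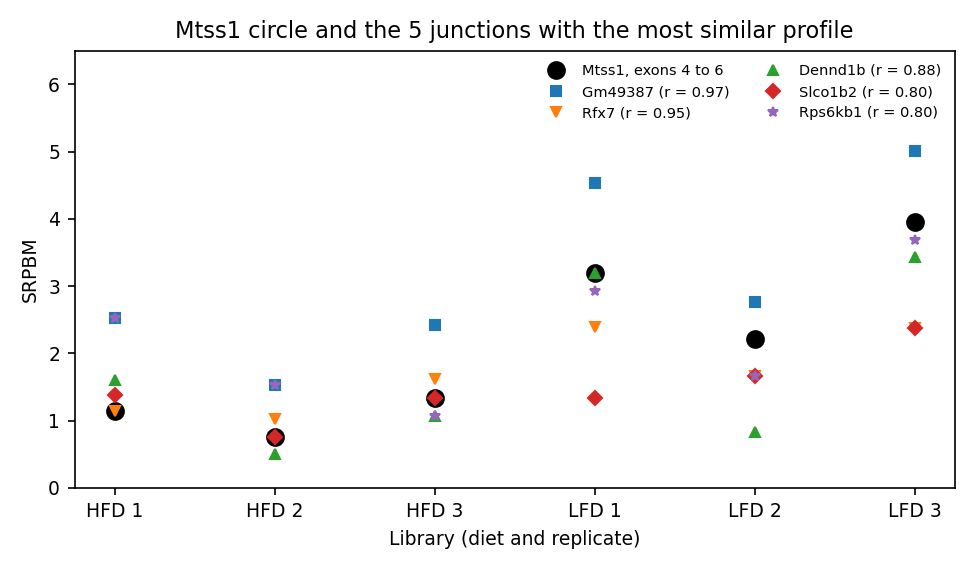
SRPBM of the Mtss1 exon 4 to 6 circle (black) and of the 5 junctions with the highest Pearson r with it, by library. In SRPBM, the Mtss1 circle and the Gm49387 and Rfx7 junctions were higher in each LFD library than in the HFD libraries. In reads, HFD replicate 1 exceeded LFD replicate 2 for Gm49387, and HFD replicate 3 equalled LFD replicate 2 for Rfx7. The 5 junctions were picked for their likeness to the Mtss1 circle.

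The other I-BAR genes were searched under 5 symbols, and only Baiap2l1, which links membrane to actin at cell protrusions, had a circle. Its junction (chr5:144318929-144324632, circRNA4555 and circRNA6408) had no read in the HFD libraries and 3, 1 and 4 reads in LFD replicates 1 to 3, or 0.710 ± 0.397 SRPBM on the LFD (SD, n = 3). That mean is below the level of 3 reads averaged over the HFD libraries, so no fold is given. It had reads in at least 2 libraries only through the LFD, the diet on which it was higher, so that its result in the fit is not read as a difference between the diets. Like the Mtss1 circle it was listed under starts 1 bp apart, with LFD replicates 1 and 2 on the lower and LFD replicate 3 on the upper start.

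Proteins with other BAR and F-BAR domains, which bind curved membrane, were hosts of circles for 22 of 54 genes, with 193 reads at 54 junctions. Of the 15 junctions tested with edgeR, 0 were called in either direction or had an unadjusted p under 0.05, and 0 were called by DESeq2. With 2.25% of all junctions called, a count of 0 among so few does not set the list apart. The median log2 fold change was -0.17, beside -0.11 over all 2089 junctions tested. When junctions at 0 on a diet were set to their bound against 3 reads per library, these medians were -0.17 and 0.00. With the entries as listed the median of the list was -0.87, beside -0.13 over all entries, or -0.22 for the list with entries at 0 on a diet set to their bound. Snx5, a sorting nexin of the endosome and the list's junction with the most reads, had 0, 3 and 5 reads on the HFD and 0, 5 and 3 on the LFD.

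Among genes of actin nucleation, the formins, WASP family and Arp2/3 components, 11 of 44 had circles, with 65 reads at 19 junctions. Of 8 junctions tested with edgeR, 0 were called or had an unadjusted p under 0.05, and 0 were called by DESeq2, which is near the 2.25% called over all junctions. Their median log2 fold change was -0.53, or 0.00 with junctions at 0 on a diet set to their bound. Daam1, a formin that elongates actin filaments, had 1, 8 and 3 reads on the HFD and 1, 0 and 0 on the LFD at chr12:71895727-71915788. The diets overlapped, and as it had reads in at least 2 libraries only through the HFD, its result in the fit is not read as a difference. Mtss1 is also known as a Gli-responsive gene, and of 16 genes of the Hedgehog pathway 2 had circles, with 5 reads in all. Both junctions were tested with edgeR, 0 were called or had an unadjusted p under 0.05, and 0 were called by DESeq2, too few to be set against the 2.25% over all junctions. Gli3, a transcription factor of the pathway, had 0, 2 and 0 reads on the HFD and 1, 0 and 0 on the LFD.

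Circles of hepatocyte genes were found for 19 of 20 markers, with 28 to 59 reads in HFD libraries and 22 to 68 in LFD libraries, the highest in HFD replicate 1 and LFD replicate 3. Hp was at 0. The endothelial list had 10 reads from 4 of 8 genes (0 to 2 on the HFD and 1 to 4 on the LFD, with Kdr, Flt1, Stab1 and Lyve1 at 0), and the macrophage and leukocyte list had 13 reads from 2 of 7 genes (0 to 3 and 2 to 4, with Ptprc, Csf1r, Cd68, Clec4f and Cd5l at 0). The stellate and fibroblast list had 1 read from 1 of 8 genes, in an HFD library, with Lrat, Des, Pdgfrb, Dcn and the collagen genes at 0. The cholangiocyte list had 13 reads, all from Pkhd1 (0 to 7 and 0 to 3), with Krt19, Krt7, Epcam and Sox9 at 0. The part of cell composition in the Mtss1 values was not tested, and fewer cells of a type and less RNA per cell cannot be told apart in bulk liver.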

How the data were processed

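CircRNAs were measured by RNA-seq in the liver of 3 HFD and 3 LFD mice, grouped by title. According to the study's methods, the authors trimmed reads with Cutadapt and aligned them with TopHat2, Bowtie2 and TopHat-Fusion, and circles were called by CIRI and CIRCExplorer2. The submitters' processing notes name cutadapt 1.9, TopHat2 2.0.4 and mm9, but 5925 of 6066 exonic junctions had ends that fitted GRCm38 exons. The authors deposited counts of back-spliced reads per library, without normalization, and SRPBM, a signal scaled to mapped reads. Junctions with reads in at least 2 libraries were fitted with edgeR 4.0.16 (glmQLFit, glmQLFTest, TMM), and with DESeq2 1.42.0 as an alternative, in R 4.3.3. The SE given with an edgeR log2 fold change is approximate. It is the absolute log2 fold change divided by the square root of the quasi-likelihood F statistic. Adjusted p-values were Benjamini-Hochberg values over all junctions. Depth was 5384 to 6590 back-spliced reads, which limits precision to a few reads per junction. Replicates differed beyond sampling noise (chi-square tests of their counts, highest p 1.33e-27). P-values measure the spread between these libraries. Named were every Mtss1 entry, the 5 junctions with the most similar SRPBM, and from each gene list the junction with the most reads and any called. The members and lists were chosen with earlier results of these data known. Other alternatives were TMM left out, other filters, Q30 class, the replicate number and each library left out. The sequence of the intron circle was not analysed here.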

Additional observations from a re-analysis of the deposited data

How the results depend on the processing

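The log2 fold change (HFD over LFD) of the Mtss1 exon 4 to 6 circle was -1.56. With entries as listed it was -0.11 for mmu_circ_0000603 and -6.03 for circRNA5602, since the listing divides the reads of this junction between 2 names. The second value is a fitted one that the prior count sets, with all HFD libraries at 0, so that it is neither a size nor a bound. The summed circle lay between -1.79 and -1.33 with each library left out, and was at -1.52 in the lower Q30 class. With Q30 class in the model, an alternative added after seeing the data, it was at -1.56. The log2 ratio summed over Mtss1 entries lay between -1.33 and -0.72 with each library left out. Calls over all junctions fell from 47 to 15 with DESeq2, to 27 in the lower Q30 class, to 17 with Q30 class in the model and to between 19 and 42 with each library left out (23 without HFD replicate 2, 19 without HFD replicate 3, 24 without LFD replicate 2 and 27 without LFD replicate 3). The cause was not tested. The difference in use of the lower start was -0.20 percentage points by pairs in place of reads, against 2.56, 5.25 over pairs with at least 10 reads (two-sided exact permutation p = 0.3), and 0.33 to 4.70 with each library left out. The log2 fold change of Snx5, -0.17, turned to 0.47 in the lower Q30 class, was -1.50 for its entry mmu_circ_0001082 as listed, and lay between -0.97 and 0.65 with each library left out (0.39 without HFD replicate 1, 0.65 without LFD replicate 2 and 0.02 without LFD replicate 3).

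With the replicate number as a block, 9 junctions were called and the Mtss1 circle was at -1.56. Same-numbered libraries did not deviate together (correlations of -0.06, 0.12 and -0.09), so the numbers give no pairing. Across different numbers the correlations lay between -0.17 and 0.23. The highest was between HFD replicate 1 and LFD replicate 3, the 2 libraries of higher Q30.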
